A study of Mus musculus with 4 samples.

Results

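The mouse Hox genes are 39 protein-coding genes in 4 clusters. They were taken by name (Hoxa, Hoxb, Hoxc or Hoxd and a number) from the 21853 coding genes of the GENCODE M21 annotation. Only 5 of the 39 (12.8%) had a peak of trimethylated lysine 4 of histone H3 (H3K4me3) within 1 kb of a coding start site in adult hippocampus. Of all coding genes, 64.8% had one. Hoxa4, Hoxa7, Hoxd1 and Hoxd9 were among them, and all 5 were marked in both pools of tissue. No Hoxb gene had a peak.

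Male B6CASTF1/J mice, adult and aged 2 months, gave the tissue, and the labels call it layer of hippocampus without naming a layer. Chromatin immunoprecipitation with an antibody to H3K4me3 gave 4 libraries, which were 2 technical replicates each of pool C and pool D, and every pool combined 7 tissue samples. Both pools have the same strain, sex, age and tissue, and the labels give no treatment. The deposited peak lists were 1 for pool C (34193 peaks), 1 for pool D (24690 peaks), 1 called on both pools together (31301 peaks) and 1 of replicated peaks (27063 peaks), on mouse build mm10. Every marker of hippocampal and excitatory neurons on a list of 11 had a promoter peak in each list, with a median breadth of 13059 bp in the replicated list. Over all marked coding genes that median was 2234 bp. Nothing tells fewer cells of a type with the mark from less mark per cell in bulk tissue.

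Hox genes encode homeodomain transcription factors that give cells their position along the head-to-tail axis of the embryo. Genes with low numbers lie at the 3′ end of a cluster and act towards the head, while genes with high numbers lie at the 5′ end and act towards the tail and in the limbs. The forebrain forms in front of the Hox-expressing territory, and Polycomb proteins keep silent Hox clusters repressed while Trithorax-group proteins such as Kmt2a place H3K4 methylation at active ones. H3K4me3 sits at the start sites of active or poised genes, most often where CpG dinucleotides are dense.

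Marked and unmarked coding genes of the genome differ widely in CpG content, so the windows of the Hox genes that the results turn on are printed here with every CG in capitals. RefSeq promoter windows of 300 bp (250 bases before the start and 50 from it on), build GRCm38.p6, were held in the table used for 22 of the 39 genes. The first pair carried a peak in every list, at chr2:74762730-74763029 (plus strand) for Hoxd1 and chr2:74697513-74697812 (plus strand) for Hoxd9.
Hoxd1 promoter: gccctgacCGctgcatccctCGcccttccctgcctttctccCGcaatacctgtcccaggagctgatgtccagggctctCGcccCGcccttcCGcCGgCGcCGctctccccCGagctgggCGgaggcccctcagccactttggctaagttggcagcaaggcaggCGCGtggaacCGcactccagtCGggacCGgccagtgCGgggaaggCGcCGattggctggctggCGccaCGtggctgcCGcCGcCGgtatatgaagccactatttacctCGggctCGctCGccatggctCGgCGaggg
Hoxd9 promoter: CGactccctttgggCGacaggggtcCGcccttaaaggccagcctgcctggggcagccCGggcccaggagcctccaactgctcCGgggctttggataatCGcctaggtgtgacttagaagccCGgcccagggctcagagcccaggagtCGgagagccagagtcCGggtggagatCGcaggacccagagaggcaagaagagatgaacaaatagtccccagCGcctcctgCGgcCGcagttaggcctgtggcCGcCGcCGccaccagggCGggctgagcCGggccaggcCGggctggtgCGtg
The Hoxd1 window has 29 CG and the Hoxd9 window 20, against a median of 7 over 32851 RefSeq promoter windows (quartiles 3 and 20). At least as many CG as Hoxd1 were found in 12.9% of all windows, and at least as many as Hoxd9 in 26.5%.

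Hoxa7 had the strongest peak of the 4 clusters, but at the most upstream of its annotated starts rather than at the RefSeq one. Both 300 bp stretches are shown on the minus strand, the one around the peak summit (chr6:52221464-52221763, from the RefSeq GRCm38.p6 assembly) and the RefSeq promoter (chr6:52218524-52218823), which has no peak.
Hoxa7 peak summit: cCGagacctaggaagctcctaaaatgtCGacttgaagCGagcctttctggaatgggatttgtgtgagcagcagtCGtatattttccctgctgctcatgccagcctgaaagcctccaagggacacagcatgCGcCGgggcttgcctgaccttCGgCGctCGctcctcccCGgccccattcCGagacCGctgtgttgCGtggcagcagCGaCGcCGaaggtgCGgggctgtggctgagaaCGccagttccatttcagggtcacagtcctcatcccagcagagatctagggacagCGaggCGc
Hoxa7 promoter: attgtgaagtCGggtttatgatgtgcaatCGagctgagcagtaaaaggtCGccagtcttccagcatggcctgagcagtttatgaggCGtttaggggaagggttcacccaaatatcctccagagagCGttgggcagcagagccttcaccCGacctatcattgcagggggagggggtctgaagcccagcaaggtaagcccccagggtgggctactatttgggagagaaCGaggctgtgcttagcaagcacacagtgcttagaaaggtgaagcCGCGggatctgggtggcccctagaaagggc
The summit stretch has 20 CG and the RefSeq promoter 9, a count that 45.8% of all windows reach.

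The windows of Hoxa13 (chr6:52260831-52261130, minus strand) and Hoxd13 (chr2:74667975-74668274, plus strand) are shown because these 2 genes have the most CpG around the annotated 5′ end among the Hox genes without a peak in any list.
Hoxa13 promoter: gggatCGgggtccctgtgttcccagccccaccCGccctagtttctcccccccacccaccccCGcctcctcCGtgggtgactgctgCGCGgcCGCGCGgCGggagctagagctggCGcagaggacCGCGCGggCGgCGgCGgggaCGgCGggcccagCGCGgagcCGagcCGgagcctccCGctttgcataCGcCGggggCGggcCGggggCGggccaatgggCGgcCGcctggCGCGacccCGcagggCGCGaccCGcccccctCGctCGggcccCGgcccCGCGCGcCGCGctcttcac
Hoxd13 promoter: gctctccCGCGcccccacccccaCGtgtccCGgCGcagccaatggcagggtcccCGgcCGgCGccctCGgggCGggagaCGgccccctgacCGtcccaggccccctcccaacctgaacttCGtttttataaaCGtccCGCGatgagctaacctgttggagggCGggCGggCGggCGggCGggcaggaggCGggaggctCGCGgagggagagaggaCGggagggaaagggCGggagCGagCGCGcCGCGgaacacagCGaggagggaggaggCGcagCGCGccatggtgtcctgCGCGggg
They hold 45 and 37 CG. Only 1.93% of all promoter windows have as many as Hoxa13, and 5.58% as many as Hoxd13. These 2 unmarked windows, chosen for genes with much CpG, hold more CG than the marked windows of Hoxd1 and Hoxd9. Over the 24 RefSeq windows of Hox genes the median was 14.5 CG (range 4 to 45).

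By cluster, HoxA had most of the marked genes. On chromosome 6, replicated promoter peaks were found at 3 of 11 Hoxa genes, and at 2 of 9 Hoxd genes on chr2:74668310-74765142. Neither the 10 Hoxb genes on chr11:96194316-96368256 nor the 9 Hoxc genes on chr15:102921103-103036852 had one. In the pool C list 6 of 39 genes were marked (15.4%, beside 66.3% of all coding genes), which were the same 5 and Hoxc5. The pool D list (63.7% of all coding genes) and the list on both pools together (65.6%) marked the 5 alone. Of 62 coding start sites of Hox genes, 5 had a replicated peak within 1 kb, 1 for each marked gene. When start sites of noncoding transcripts of a gene were admitted too, Hoxc6 joined and the count became 6 in the replicated list (all coding genes 65.5%), 7 in pool C (66.9%) and 6 in pool D (64.3%).

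**Figure D1:**
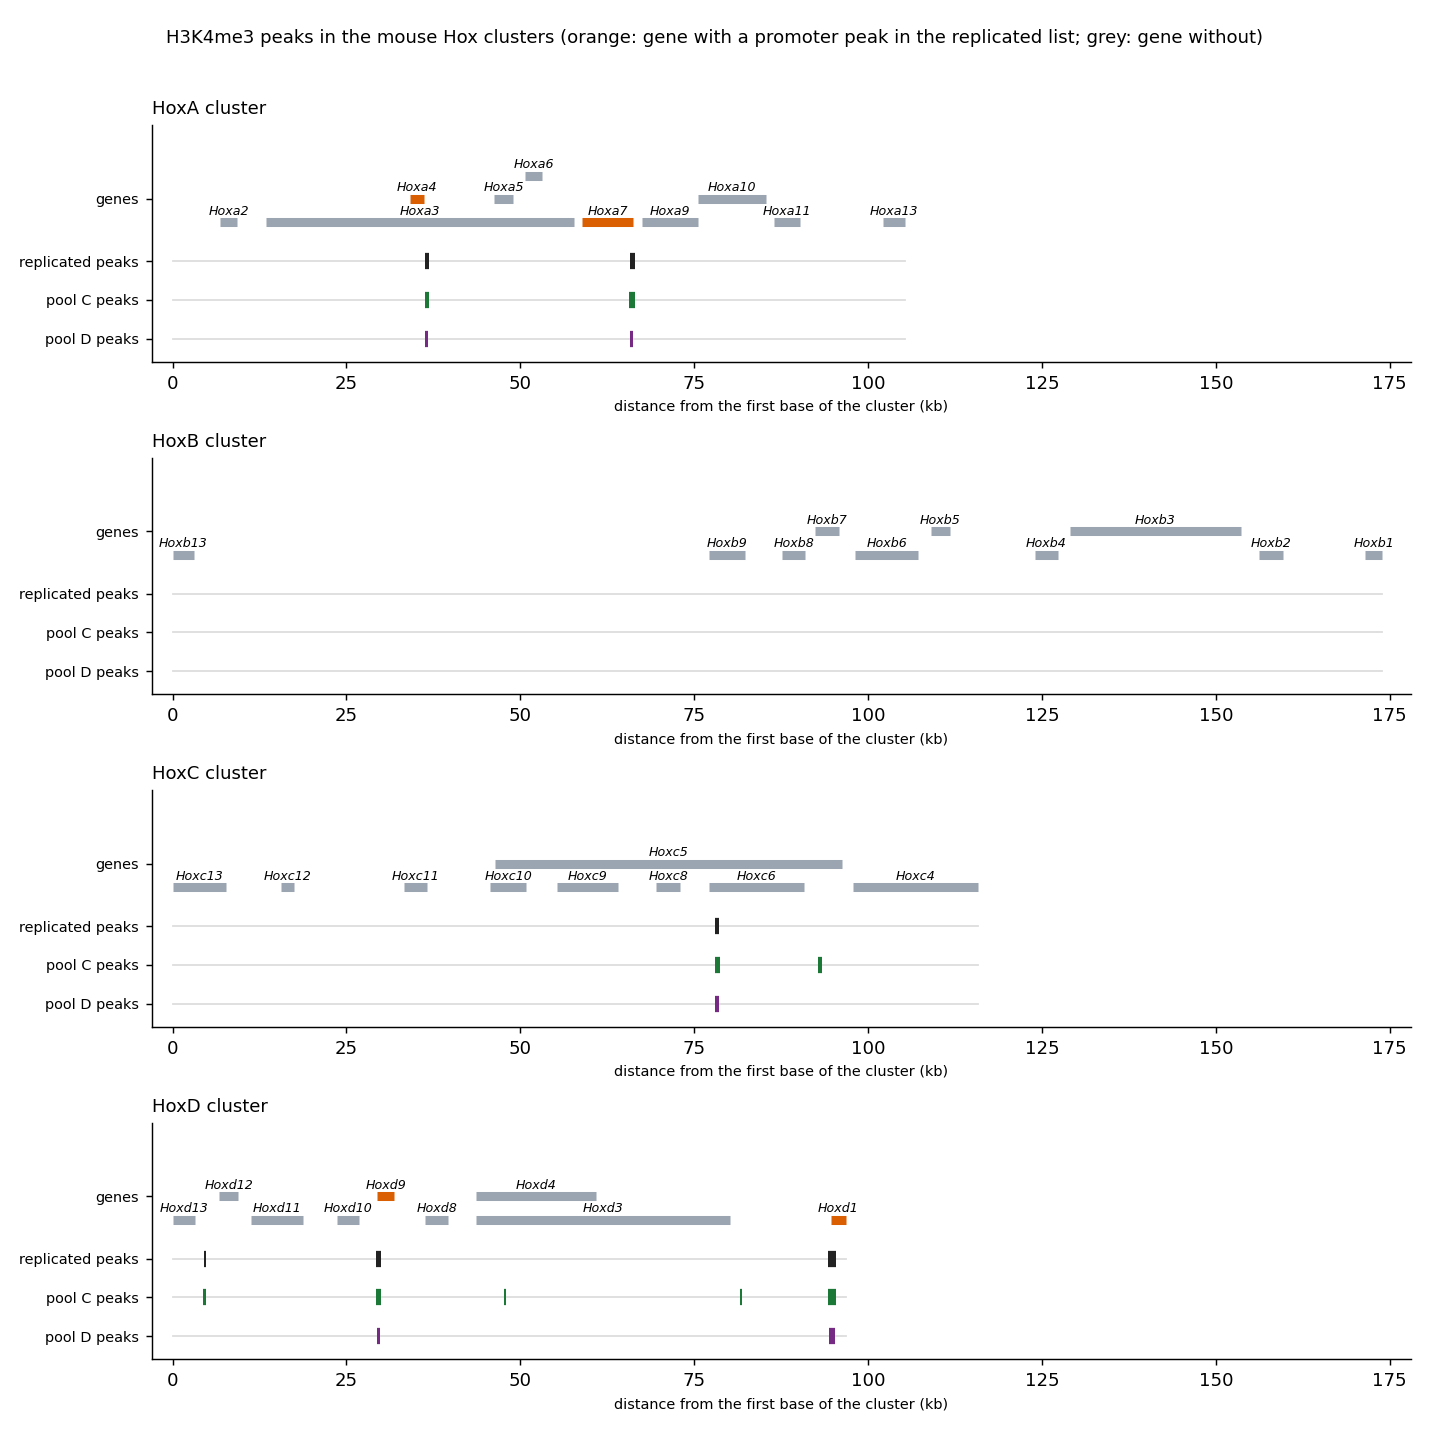
Maps of the 4 Hox clusters drawn to 1 scale, with distance in kb from the first base of each cluster on the horizontal axis. Bars on the gene rows are genes, orange where a replicated peak marks the gene and grey where none does, and the 3 rows under them are the replicated, pool C and pool D peaks. The HoxA map shows 10 of the 11 genes and 2 of the 3 peaks, which recur in every list, and HoxB is empty in all of them.

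Marked genes were found in low, middle and high paralog groups. In groups 1 to 4, whose genes pattern the hindbrain and neck, 3 of 12 genes had a promoter peak. In groups 5 to 8, the middle of the clusters, 1 of 11 had one, or 2 with Hoxc6. In groups 9 to 13, which pattern the lower trunk and limbs, 1 of 16 had one. No paralog group was marked in all of its genes.

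Hoxa4, a gene of the neck and upper trunk, had a peak beside its start and not over it. The replicated peak at chr6:52191935-52192397 was 463 bp wide with a −log10 q of 12.8 (q is the authors' false discovery estimate, so larger means stronger evidence), and its near edge stood 182 bp upstream of the Hoxa4 start at chr6:52191753. It was 549 bp wide in pool C (−log10 q 19.3) and 426 bp in pool D (7.81). The annotation places it in introns of Hoxa3, Gm28308 and the antisense gene Hoxaas3, and it overlaps no exon. Of the 5 marked genes, Hoxa4 had the most distant peak, and the nearest gene beyond the 1 kb limit was Hoxd12, at 1896 bp.

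Hoxa7, a gene of the thoracic region, had the strongest peak of the clusters in every list. The replicated peak at chr6:52221293-52222071 was 779 bp wide, with a −log10 q of 77.3 and a signal above that of 57.7% of all replicated peaks. It was 819 bp wide in pool C (−log10 q 117) and 512 bp in pool D (54.8). The summit fell in an exon, 240 bp downstream of the start at chr6:52221854. The 3 other coding start sites of Hoxa7 were 2582 to 3841 bp from the peak, so only the most upstream coding start was marked. A start of another transcript type, at chr6:52220393, was 900 bp from the peak.

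Hoxd1, which shapes the wiring of pain-sensing neurons in the mouse, had the widest peak. The replicated peak at chr2:74762598-74763632 was 1035 bp wide with a −log10 q of 37.2. It was 1221 bp wide in pool C (−log10 q 61.5) and 793 bp in pool D (21.1). The summit lay 86 bp downstream of the Hoxd1 start, and the peak also covered the start of Haglr, a long noncoding RNA that runs the other way from chr2:74762896. With 10.4 CpG per 100 bp it was also the most CpG-dense of the 7 replicated peaks.

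Hoxd9, which acts in the lumbar spinal cord and limb, was marked over its start. The replicated peak at chr2:74697626-74698234 was 609 bp wide with a −log10 q of 7.13. It was 683 bp wide in pool C (−log10 q 16.5) and 531 bp in pool D (6.31). The Hoxd9 start at chr2:74697727 lay inside the peak and the summit 333 bp downstream, in an exon. Gm28793, an antisense gene, starts 40 bp from the peak.

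Hoxc6, a gene of forelimb-level motor neurons and the thorax, had a peak far from its coding start. The peak at chr15:102999074-102999654 was 581 bp wide with a −log10 q of 24.2 in the replicated list, 738 bp in pool C (36.2) and 560 bp in pool D (15.4). It lay in introns of Hoxc6 and Hoxc5, between the starts of 2 noncoding transcripts of Hoxc6 that were 817 and 875 bp from its edges. The coding start of Hoxc6 was 9919 bp away. It ranked behind only the Hoxa7 and Hoxd1 peaks by signal in the replicated, pool C and pool D lists.

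The seventh replicated peak was at no gene start. It lay between Hoxd13 and Hoxd12, 2 genes of the digits and limb, at chr2:74672828-74673117. It was 290 bp wide with a −log10 q of 1.295, and only 1.22% of replicated peaks had a lower signal. Its q was just above 0.05, as it was for 357 of the 27063 replicated peaks. Pool C had 399 bp there with a −log10 q of 1.83, whereas pool D and the list on both pools together had no peak.

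Pool C held 3 more Hox peaks that were absent from pool D and from the replicated list. One was at Hoxc5 (chr15:103013871-103014462, 592 bp, −log10 q 3.12), a gene that acts in phrenic motor neurons, 56 bp from its coding start and 448 bp from the start of Mir615. Another lay over the start of Hoxd3os1, antisense to Hoxd3 (chr2:74715955-74716214, 260 bp, −log10 q 9.03), and 195 bp of it recurred in the list on both pools together. The last was in an exon of Haglr (chr2:74749859-74750141, 283 bp, −log10 q 5.44), 365 bp from an annotated start of that gene at chr2:74750506.

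In all, 6 of 10 pool C peaks in the clusters had a pool D counterpart (all pool C peaks 65.3%), and 6 of 6 pool D peaks had a pool C counterpart (all pool D peaks 99.3%). The 4 unmatched peaks ranked below the 6 matched ones by signal. Of pool C peaks within 5 percentile points of the same signal rank, 6.95% were found in pool D for Hoxc5, 5.27% for the one near Hoxd12, 13.9% for Haglr and 35.5% for Hoxd3os1. For the 6 matched peaks that share ran between 80.9% and 100%.

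The 6 shared peaks were wider in pool C than in pool D in 6 of 6 cases, with a median ratio of 1.43 (range 1.29 to 1.94). Over the 13907 coding genes marked in both pools the ratio of promoter breadth had a median of 1.17 and quartiles of 1.09 and 1.32, so pool C was the wider one in general too. Each pool gives 1 list, so this difference has no replicate error. Marker genes of other cells differed between the pools as well. Beside 66.3% of all coding genes in pool C and 63.7% in pool D, these lists gave the following counts. Of 11 microglia and blood genes 7 were marked in pool C and 0 in pool D, of 10 endothelial genes 10 and 8. Of 11 mural and meningeal genes 10 and 8 were marked. Of 15 hindbrain and spinal cord genes 7 were marked in pool C and 4 in pool D. The part of these cells and of depth in the Hox peaks was not tested.

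**Figure D2:**
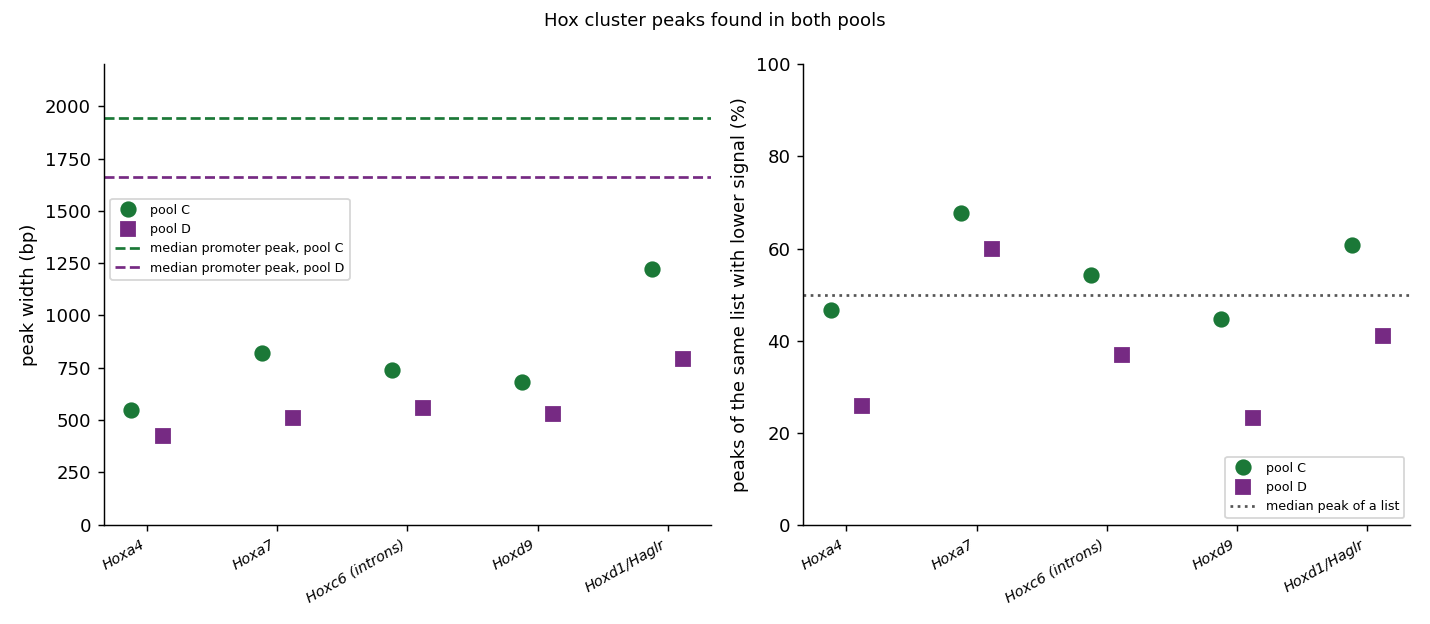
Width in bp (left) and percent of peaks of the same list with a lower signal (right) for 5 of the 6 Hox cluster peaks found in both pools, with circles for pool C and squares for pool D, and dashed lines at the median width of each pool's promoter peaks. All 10 widths lie below the dashed lines (1943 bp in pool C and 1662 bp in pool D). Ranks come from lists of different length and are read within a pool only.

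Hox peaks were narrow. All 7 replicated peaks (290 to 1035 bp, median 609 bp) were narrower than the median of 15515 peaks at coding promoters, 1872 bp, and also than the lower quartile of 1253.5 bp. Median width was 637.5 bp over the 10 peaks of pool C and 521.5 bp over the 6 of pool D. Among the 14169 marked genes of the replicated list, only 8.39% had a narrower promoter domain than Hoxd1, the broadest of the 5. The share was 4.87% for Hoxa7, 2.79% for Hoxd9 and 1.47% for Hoxa4. Signal was ranked over all replicated peaks, a different set, where Hoxa7 lay above the median and Hoxd1 just below it at 49.1%. Hoxc6 followed at 43.3%, Hoxa4 at 33.8% and Hoxd9 at 24.1%. By width in that same set Hoxa7 stood at 35.1%, Hoxd1 at 44.6%, Hoxc6 at 24.4%, Hoxa4 at 16.8% and Hoxd9 at 26.0%. Signal thus ranked above width for Hoxa7, Hoxd1, Hoxc6 and Hoxa4. It ranked below width for Hoxd9 and for the peak near Hoxd12 (width 5.20%, signal 1.22%).

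Over all shared peaks, not all of which are reported here, the order by signal differed between the pools. For the 5 shared peaks named above, the order was the same in both. In pool C it ran Hoxa7 (67.6% of pool C peaks were weaker), Hoxd1 (60.7%), Hoxc6 (54.4%), Hoxa4 (46.6%) and Hoxd9 (44.6%). In pool D it ran Hoxa7 (above the median pool D peak), Hoxd1 (41.0% of pool D peaks were weaker), Hoxc6 (36.8%), Hoxa4 (25.9%) and Hoxd9 (23.1%).

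The 34 unmarked genes differed widely in their distance to the nearest replicated peak. Within HoxA the 8 unmarked genes were 4118 bp (Hoxa9) to 38731 bp (Hoxa13) away, and within HoxD the 7 were 1896 bp (Hoxd12) to 23744 bp (Hoxd4) away. The 9 Hoxc genes were 8467 bp (Hoxc8) to 77971 bp (Hoxc13) away, by their coding starts. The 10 Hoxb genes were 69614 bp (Hoxb13) to 193565 bp (Hoxb4) away.

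All 10 Hoxb genes lay in 1 stretch without a replicated peak, chr11:96124703-96526219, 401.517 kb long and holding 12 coding genes. That stretch was 339.578 kb in pool C and 401.684 kb in pool D. The 6 genes from Hoxc13 to Hoxc8 lay in a stretch of 200.787 kb, Hoxa9 to Hoxa13 in one of 83.745 kb, and Hoxd8, Hoxd4 and Hoxd3 in one of 64.363 kb. Peak-free stretches this long are common, and the HoxB one ranked number 455 by length among 3096 that hold a coding gene. They seldom hold CpG-rich genes, here those with at least 60 CpG within 500 bp of the 5′ end. Only 8 of the 3096 had 3 or more such genes, and the HoxC and HoxD stretches just named were among them with 3 each. In the HoxD stretch, however, the annotated 5′ ends of Hoxd3 and Hoxd4 are at chr2:74711927 and chr2:74711929. Their windows, with 61 CpG each, are nearly the same sequence counted for both genes. The HoxC stretch held 3 in pool C and in pool D as well, at 200.516 and 200.917 kb. The HoxD one held 3 in pool D, at 64.522 kb, but the Hoxd3os1 and Haglr peaks broke it up in pool C, where its parts of 17.676 and 33.644 kb held 1 each.

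CpG content did not separate marked from unmarked Hox genes as it did elsewhere. The 5 marked Hox genes had 55 to 125 CpG (median 70) within 500 bp of the gene's 5′ end, and the 34 unmarked ones 10 to 126 (median 50). Among all other coding genes the median was 60 in those with a promoter peak and 9 in those without. The unmarked Hox genes were thus closer in CpG content to marked genes than to unmarked genes of the rest of the genome. By gene, Hoxa4 had 125, Hoxd1 94, Hoxd9 70 and Hoxa7 55, all of them marked. Unmarked with the most CpG were Hoxa13 (126) and Hoxd13 (118), which form the digits, followed by Hoxb9 (90), Hoxc13 (75) and Hoxa5 (74).

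Of 16 Hox genes with at least 60 CpG, 4 had a promoter peak, against 7188 of 7320 other genes (98.2%). The unmarked ones include Hoxd3 and Hoxd4, whose windows are nearly the same sequence. The count was 4 of 16 in pool C and in pool D as well (other genes 98.6% and 97.7%). Of 13 Hox genes with 40 to 59 CpG 1 was marked, against 94.8% of others. The 12 CpG-rich Hox genes without a peak made up 8.33% of the 144 unmarked CpG-rich genes, though Hox genes were 0.218% of the 7336 CpG-rich ones. The annotated 5′ ends of Hoxc5, Hoxc6, Hoxd4, Hoxa9 and Hoxd11 belong to noncoding transcripts that start far from the coding starts of the same gene. At the richest coding start CpG was lower for Hoxc5 (30 in place of 52), Hoxc6 (26, 33) and Hoxd4 (42, 61). It was higher for Hoxa9 (69 in place of 31) and Hoxd11 (113, 44). Hoxa7 (75), Hoxa10 (72), Hoxb5 (65) and Hoxb6 (72) also reached 60 CpG only at such a start. With CpG counted at the richest coding start of each gene, 5 of 21 CpG-rich Hox genes were marked, against 98.4% of 8653 others. The richest start need not be the marked one. Hoxa7 has 75 CpG at coding starts without a peak and 55 at its marked start. By that count the unmarked genes with the most CpG were Hoxd8 (147), Hoxa13 (137), Hoxd13 (118) and Hoxd11 (113).

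**Figure D3:**
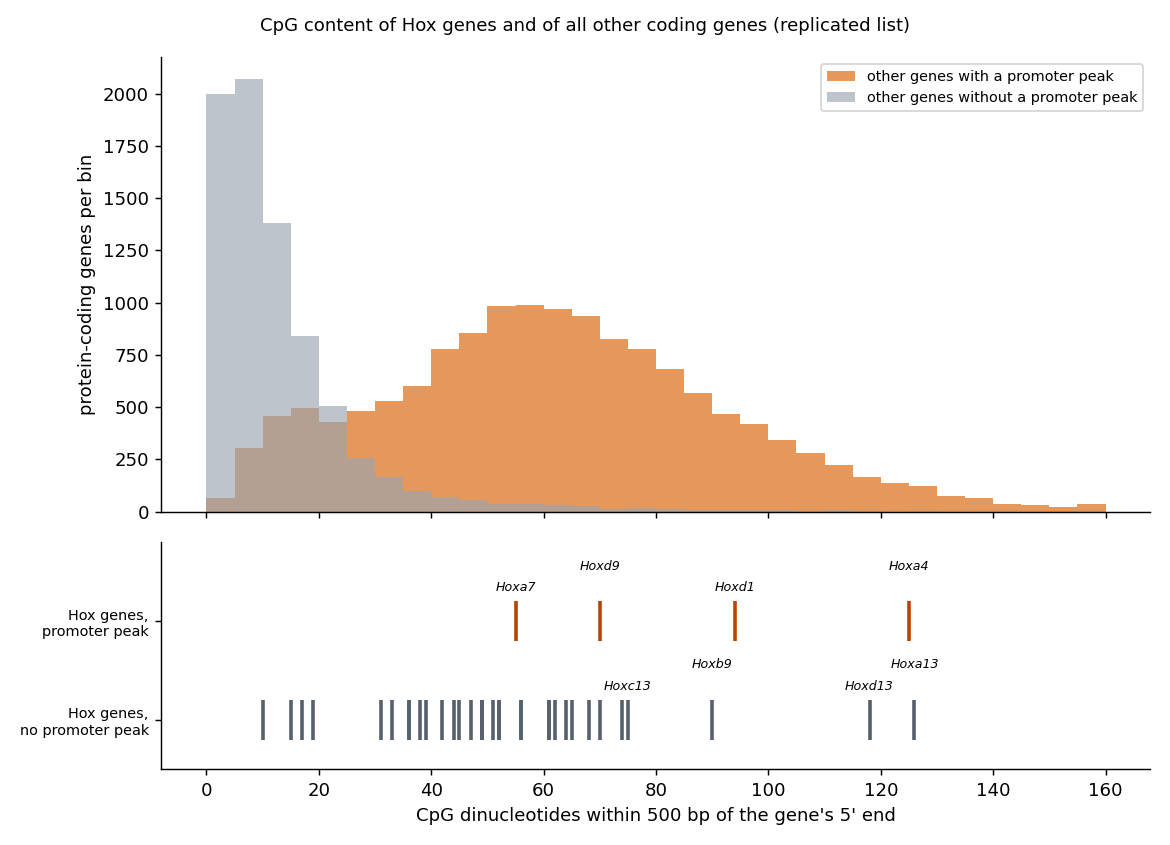
CpG dinucleotides within 500 bp of the gene's 5′ end on the horizontal axis, with the number of other coding genes per bin of 5 CpG above (orange with, grey without a promoter peak in the replicated list, the last bin holding 155 and over) and 4 marked and 34 unmarked Hox genes as ticks below. The ticks of the 34 unmarked Hox genes, with a median of 50 CpG, lie mostly under the orange bars of marked genes.

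Inside the peaks CpG was dense. The 7 replicated Hox peaks had a median of 6.91 CpG per 100 bp, against 4.24 in replicated peaks at coding promoters and 3.47 in all replicated peaks. The lowest was the Hoxc6 peak with 4.82, followed by the one near Hoxd12 with 5.86.

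Peaks in the clusters were fewer per gene than over the genome, but not fewer per Mb. The 4 spans cover 491.815 kb and held 7 replicated peaks, 14.2 per Mb, against 9.93 per Mb over the genome. They hold 83.4 coding genes per Mb, against 8.02 over the genome. Peaks covered 0.918% of the spans (1.52% of the genome), 1.28% in pool C (1.76%) and 0.654% in pool D (1.29%). By cluster the replicated peaks covered 2.00% of HoxD, 1.90% of HoxA, 0.502% of HoxC and none of HoxB. In the 200 kb on either side of each cluster peaks covered 1.73%, and 8 of 15 coding genes there were marked.

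The nearest marked genes outside the clusters had broader domains than any Hox gene. They were Lnpk (1913 bp) and Mtx2 (1876 bp) beside HoxD, at 88.9 and 60.7 kb, and Skap2 (1669 bp) and Hibadh (1637 bp) beside HoxA, at 143 and 380 kb. Calcoco1 (1641 bp) and Smug1 (1345 bp) flanked HoxC at 199 and 130 kb, and Atp5g1 (3025 bp) and Snx11 (1516 bp) flanked HoxB at 119 and 409 kb. Over all 14169 marked genes the median breadth was 2234 bp (quartiles 1632 and 3134). Among these flanking genes only Atp5g1 was above that median. Evx1 and Evx2, homeobox genes next to Hoxa13 and Hoxd13, had no promoter peak in any list.

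Of 43 noncoding genes between the outermost Hox genes, 4 had a replicated peak within 1 kb of a start (12.2% of all noncoding genes). Gm28793 and Haglr were among them, and all 4 were beside marked Hox genes. In pool C 6 were marked, with Hoxd3os1 and Mir615 added (13.4%), and in pool D the same 4 as in the replicated list (11.4%). Hotair, a long noncoding RNA of HoxC, was 51344 bp from the nearest replicated peak. The other coding genes in the spans, Gm28308 and 5730596B20Rik, had none, nor had Gm28230, a gene of the coding type without a transcript of that type, which is left out of the gene counts.

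A long noncoding RNA started within 1 kb on the opposite strand at 3 of the 5 marked Hox genes (Hoxd1 and Hoxd9 among them) and at 4 of the 34 unmarked ones (Hoxa2, Hoxa3, Hoxa11 and Hoxd3). Among other coding genes this held for 10.9% of the marked and 2.72% of the unmarked. With 5 marked genes these counts are a description only.

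The clusters hold 7 annotated microRNA genes, short RNAs that repress messages matching their seed (bases 2 to 8, in capitals). The mature forms from the RefSeq table (GRCm38.p6) are printed to show which clusters share a seed.
mmu-miR-10a-5p: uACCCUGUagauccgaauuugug
mmu-miR-10b-5p: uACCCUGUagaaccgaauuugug
mmu-miR-196a-5p: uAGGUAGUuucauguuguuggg
mmu-miR-196b-5p: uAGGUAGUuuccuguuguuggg
mmu-miR-615-5p: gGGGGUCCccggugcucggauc
mmu-miR-615-3p: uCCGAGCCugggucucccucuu
The miR-10 seed is shared by Mir10a in HoxB and Mir10b in HoxD, and the miR-196 seed by Mir196a-1 in HoxB, Mir196a-2 in HoxC and Mir196b in HoxA. None of the 7 had a replicated or a pool D peak within 1 kb (all microRNA genes 14.4% and 13.7%), and Mir615 alone had one in pool C (15.9%). Mir196b was the nearest to a replicated peak among the miR-10 and miR-196 genes, at 8094 bp, and Mir10a the farthest, at 192463 bp. A microRNA's own start in the annotation is that of its hairpin and not of its primary transcript.

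Most genes that work with or on the Hox genes carried the mark, and the counts that follow stand beside 64.8% of all coding genes and 98.2% of other CpG-rich genes in the replicated list. All 9 cofactors of the TALE class, which bind DNA together with Hox proteins, had a promoter peak in every list. Their median breadth was 3234 bp, against 2234 bp over all marked coding genes. Meis2 had 9675 bp and Pknox1 5016 bp in the replicated list, and Pbx4 the least with 1388 bp. All 21 Polycomb genes and all 11 Trithorax genes were marked in every list too, among them Ezh2, the H3K27 methyltransferase (2643 bp), and Kmt2a, an H3K4 methyltransferase (6306 bp). Median CpG within 500 bp of the 5′ end was 88 over the Polycomb and 87 over the Trithorax genes, both above the 60 that makes a gene CpG-rich here. Over the TALE cofactors it was 48, below that limit. Of 13 upstream regulators 9 were marked in every list, a share close to that of all coding genes. They included the retinoic acid receptors Rara, Rarb and Rarg. The other 4, without a replicated peak, were Cyp26c1, which degrades retinoic acid, and Cdx1, Cdx2 and Cdx4, which drive Hox genes of the trunk.

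Among homeobox genes outside the clusters, 21 of 23 forebrain members were marked, with a median breadth of 4732 bp and 13059 bp at Emx2, which the hippocampus needs to form fully. Of 15 ParaHox and neighbouring homeobox genes 8 were marked in the replicated list, 8 in pool C and 4 in pool D, with a median breadth of 1135 bp. Without a replicated peak there were Pdx1, Cdx1, Cdx2, Cdx4, Evx1, Evx2 and Meox1. Of the hindbrain and spinal cord genes 6 of 15 were marked, Irx3 with 1609 bp and En2 with 2109 bp among them, and the marked ones had a median of 1339.5 bp. En1, En2 and Gbx2, all marked, are on this list and on the ParaHox and neighbouring one, so the counts overlap. Lbx1 and Tlx3, which define dorsal hindbrain and spinal neurons, had no peak in any list.

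**Figure D4:**
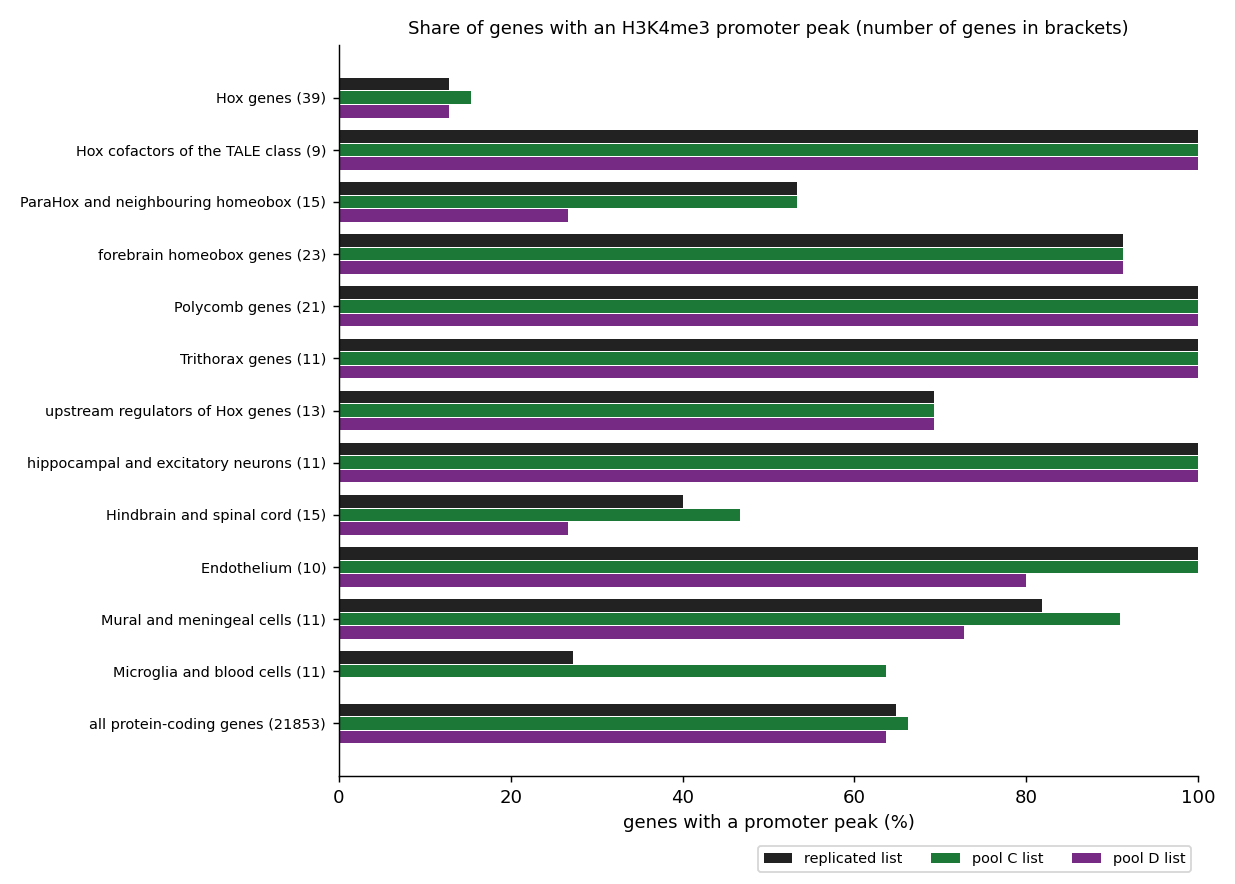
Percent of genes with a promoter peak in the replicated, pool C and pool D lists for the Hox genes, 11 comparison lists and all coding genes, with the number of genes in brackets. Hox genes have the shortest bars in the replicated and pool C lists (12.8% and 15.4%), and in pool D only microglia and blood genes, at 0, are lower.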

How the data were processed

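H3K4me3 chromatin immunoprecipitation of mouse hippocampus was analysed from the 4 peak lists that the authors deposited on build mm10. Since the technical replicates of a pool went into 1 alignment, a pool has 1 list. Lists were tied to pools through the notes deposited per library. Library fragments were in the range 200 to 600, per the labels. The peak caller is not given in the sources used here. The signal of a peak was deposited by the authors on their caller's scale and served only to rank peaks within a list. The −log10 q is as the authors deposited it, and the −log10 p beside it was not used. For peaks found with the same ends in the replicated list and the list on both pools together, the deposited values are the same. The depth of the libraries is unknown from these files.

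Start sites came from GENCODE M21 (GRCm38, the same build), 54361 of them for coding transcripts. A gene was called marked if at least 1 bp of a peak fell within 1 kb of such a start, up- or downstream. Peaks within 1 kb of each other were joined into domains for breadth. CpG was counted within 500 bp of the gene's 5′ end in GRCm38.p6. Overlap between lists required 1 bp. Python 3.11.15, pandas 2.3.3, numpy 2.4.6 and matplotlib 3.10.9 were used. Functions for promoter calls, breadth, covered length and overlap were tested on simulated data, and the one for distance to the nearest peak was not. No test was made, since each pool gives 1 list, and counts are set beside those over all genes or peaks. Named are marked members with their values in every list, marked noncoding genes, every replicated peak in a span, flanking marked genes and the 2 unmarked genes with the most CpG. Others were named after their values were seen. The members and the comparison lists were chosen with earlier results of these data known. A few genes and peaks that this rule or the lists take are not reported here.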

Additional observations from a re-analysis of the deposited data

How the results depend on the processing

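The number of marked Hox genes, 5 in the replicated list, stayed between 5 and 6 with a promoter window of 500 bp or 2.5 kb, with start sites of every transcript type, with the gene's 5′ end alone, with peaks of −log10 q of at least 2 or 5, and with the pool C, pool D or both-pool list in its place. It ran from 5 to 7 across these settings in pool C and from 4 to 6 in pool D. Of all coding genes, 61.9% to 66.3% were marked over the settings set against the replicated list. That share was 63.3% to 67.4% in pool C and 60.6% to 64.6% in pool D. Peaks in the spans numbered 6 to 10 over the lists and thresholds set against the replicated list. Single genes that gained a call were Hoxd12 at 2.5 kb, Hoxc6 with every transcript type or the 5′ end alone, and Hoxc5 with the pool C list. The median CpG count of the Hox genes, 52 within 500 bp, was 29 within 250 bp and 88 within 1 kb, since the window itself is smaller or larger. The count at the richest coding start was chosen after seeing the data, and with it the CpG-rich Hox genes without a peak numbered 16 in place of 12.

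No paired analysis was possible because each pool gives 1 peak list and no result comes from a test. The lists reach weak peaks (lowest −log10 q 0.26 in the replicated list), so the peak near Hoxd12, lost at −log10 q of at least 2, depends on the threshold. With depth unknown, a gene without a peak had no mark detectable in these lists.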
